A study of Rattus norvegicus with 56 samples.

Results

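S100a8, S100a9, Alox15, Pf4, Cd36 and Hba-a1 were followed as 6 genes of blood and myeloid cells in RNA of the rat hypothalamus. They were chosen by their levels in rats pretreated with indometacin, so every difference between the indometacin arrays and the others is given here as a description, with no test. Each gene was read from the brightest transcript cluster annotated with its symbol alone, and each of the 6 symbols had exactly 1 such cluster among the 14557 genes and 36685 transcript clusters of the array. A transcript cluster is the set of probes that the array summarises as 1 value, and levels below are log2 of that intensity.

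S100A8 and S100A9 are small calcium-binding proteins that pair as calprotectin, fill the cytoplasm of neutrophils and are also made by monocytes. Outside the cell the pair binds TLR4 and recruits myeloid cells. ALOX15 is a lipoxygenase that oxygenates arachidonic and linoleic acid and is known from reticulocytes, eosinophils and some macrophages. PF4 is a chemokine stored in platelet granules, CD36 is a receptor for fatty acids and oxidised lipoproteins on platelets, monocytes and capillary endothelium, and Hba-a1 encodes the alpha chain of haemoglobin in red cells. Healthy brain tissue holds few blood cells outside its vessels, and the haemoglobin transcripts of a tissue piece are commonly read as a sign of its blood content, although some neurons also make haemoglobin.

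The tissue was the medial hypothalamus around the paraventricular nucleus of 3-month-old male Wistar rats, with 1 array for each of 56 rats. Rats received indometacin (INDOM, a non-selective cyclooxygenase inhibitor), SC-560 (SC560, selective for COX-1), celecoxib (CEL, selective for COX-2) or saline under the skin for 10 days, or underwent subdiaphragmatic vagotomy (VG) or a sham operation (SH) with 30 days of recovery. A single intraperitoneal injection of 10 µg lipopolysaccharide (LPS, a bacterial cell wall component that provokes inflammation) in 100 µl, or of saline alone (NaCl), followed, and the tissue was taken after 120 minutes. The groups were INDOM LPS (n = 3) and INDOM NaCl (n = 5), SC560 LPS and SC560 NaCl (n = 5 each), CEL LPS and CEL NaCl (n = 5 each), saline LPS (n = 4) and saline NaCl (n = 3), VG LPS (n = 5) and VG NaCl (n = 3), SH LPS and SH NaCl (n = 4 each), and rats without any procedure (CNT, n = 5). No source read here states the doses of the 3 drugs or names a perfusion before the tissue was taken. Fewer blood cells and less RNA per blood cell cannot be told apart in such bulk tissue.

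In the sample names the run of groups begins anew with array 41, and the arrays are therefore described as 2 sets, arrays 1 to 40 and arrays 41 to 56. All 8 INDOM arrays lie in arrays 41 to 56 and all CEL and SC560 arrays in arrays 1 to 40, so indometacin cannot be told apart from the array set except against the saline, VG, SH and CNT arrays of arrays 41 to 56. The hypothalamic hormones were high, with Avp at a median percentile of 98.75 and Oxt at 99.17 within an array. VG LPS array 46 stood apart, with a median of -1.94 over hypothalamic neuron markers (-0.45 to 0.47 on the other 55 arrays) and of 3.20 over choroid plexus markers (-0.36 to 0.53), both as log2 deviations from the mean of all arrays. Injection labels were checked with Cxcl10, a chemokine gene that LPS induces strongly. Its level lay between 7.17 and 9.50 on 19 LPS arrays without indometacin and between 3.81 and 5.27 on 19 NaCl arrays, whereas SH LPS array 6 (4.13), VG LPS arrays 11 (4.08) and 12 (4.91) and CEL LPS array 21 (4.71) lay in the range of the NaCl arrays, and SC560 NaCl array 36 (9.50) lay at the top of the LPS range. Other LPS genes did not always go the same way. CEL LPS array 21 had Nfkbia (7.40) and Ptgs2 (5.93) in their LPS ranges of 6.92 to 8.32 and 5.41 to 6.89. Its Lcn2 (3.75), like its Cxcl10, lay in the NaCl range. VG LPS array 12 had Ptgs2 (5.77) in the LPS range. Its Nfkbia (6.08) and Lcn2 (4.26) lay in the NaCl ranges, as its Cxcl10 did. The doubt rests on Cxcl10 and Lcn2 for array 21 and on all but Ptgs2 for array 12. SC560 NaCl array 36 had Ptgs2 (6.48) and Nfkbia (7.50) in their LPS ranges. Its Lcn2 (6.96) lay just above the LPS range of 4.48 to 6.94. SH LPS array 6 had Lcn2 (4.25), Ptgs2 (5.05) and Nfkbia (5.56) in the NaCl ranges. VG LPS array 11 had Lcn2 (4.16) and Nfkbia (5.67) there, and Ptgs2 (5.20) just above the NaCl range of 4.10 to 5.09. The CNT arrays were not part of this check. Over 9 LPS response genes their median deviation was -0.61, but the highest CNT array stood at 1.00. That value lies inside the range of 0.38 to 1.22 of the SC560 LPS arrays. All labels were kept.

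Promoter sequences are shown for S100a9 and Hba-a1 because these are the myeloid and the red cell gene on which the comparison of calprotectin with haemoglobin turns. Both are RefSeq sequence of build GRCr8, from 250 bases before to 50 after the annotated start, 5′ to 3′ on the gene's own strand, and 3 of the 6 genes (S100a9, Hba-a1 and Cd36) were matched in the promoter table. S100a9 lies at chr2:178490573-178490872 (minus strand) and Hba-a1 at chr10:15842531-15842830 (minus strand). Capitals mark TATAAA (the TATA box), GATAA (a core of the sites of GATA factors, which drive red cell genes) and GAGGAA or its reverse complement TTCCTC (a core of the sites of PU.1, a factor of myeloid cells).
S100a9: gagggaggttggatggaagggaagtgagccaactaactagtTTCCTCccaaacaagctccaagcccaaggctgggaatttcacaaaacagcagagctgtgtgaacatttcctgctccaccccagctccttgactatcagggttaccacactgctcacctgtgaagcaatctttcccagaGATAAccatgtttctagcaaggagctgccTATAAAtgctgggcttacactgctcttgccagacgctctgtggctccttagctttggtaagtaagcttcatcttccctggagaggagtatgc
Hba-a1: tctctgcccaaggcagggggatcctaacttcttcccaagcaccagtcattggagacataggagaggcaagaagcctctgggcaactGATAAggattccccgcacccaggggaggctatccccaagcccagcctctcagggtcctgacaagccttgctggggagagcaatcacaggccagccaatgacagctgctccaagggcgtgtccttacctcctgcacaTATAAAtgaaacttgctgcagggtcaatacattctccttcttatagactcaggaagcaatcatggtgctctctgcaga
The S100a9 promoter held TTCCTC at -209, GATAA at -71 and TATAAA at -42 from the annotated start, and the Hba-a1 promoter held GATAA at -164 and TATAAA at -28. The Cd36 promoter, not printed, held GAGGAA at -249 and TATAAA at -175, both on the other strand. TTGCNNAA, a core of the sites of C/EBP factors, was in none of the 3 promoters, and no motif overlapped another. Among 33469 promoters of the same length, searched on both strands, 14.2% held TATAAA, 26.5% GATAA, 27.6% GAGGAA and 10.6% TTGCNNAA, so each match is common and is a description of the letters only. S100a8 and S100a9 are neighbours on chromosome 2 with 0 annotated genes between them. Alox15 lies on chromosome 10, Pf4 on chromosome 14 and Cd36 on chromosome 4.

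S100a8 (transcript cluster 17740434) was dim in most rats and bright in a few rats given indometacin. Its log2 level was 6.27, 5.78 and 3.53 on the INDOM LPS arrays 49, 50 and 51, and 2.36, 4.99, 2.17, 1.99 and 2.10 on the INDOM NaCl arrays 52 to 56. The 48 arrays without indometacin ran from 1.71 to 3.46 with a median of 2.25, and the highest of them was SH LPS array 7. Thus the 3 INDOM LPS arrays and INDOM NaCl array 53 lay above every array without indometacin, and the other 4 INDOM NaCl arrays lay inside their range. Within its own array S100a8 stood at the 80.73, 73.53 and 63.63 percentile on arrays 49, 50 and 53, against a median percentile of 12.94 over all 56 arrays.

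S100a9 (transcript cluster 17749130), the partner of S100a8, had the same arrays on top. Its log2 level was 7.19, 6.72 and 4.28 on the INDOM LPS arrays 49, 50 and 51, and 3.17, 6.11, 3.46, 2.43 and 3.32 on the INDOM NaCl arrays 52 to 56. Without indometacin it ran from 2.32 to 4.32 with a median of 3.01, so 3 INDOM arrays (49, 50 and 53) exceeded all 48, while array 51 at 4.28 lay just under SC560 LPS array 31 at 4.32. Of 134 genes (0.921% of 14557) with 3 or more INDOM arrays above all 48, and 18 genes (0.124%) with 4 or more, S100a9 belongs to the first count and S100a8 to both, as they were selected on these arrays.

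Alox15 (transcript cluster 17658088) was the gene that most INDOM arrays set apart. Its log2 level was 7.15, 7.92 and 3.66 on the INDOM LPS arrays 49, 50 and 51, and 5.21, 7.53, 4.12, 3.99 and 3.46 on the INDOM NaCl arrays 52 to 56. The 48 arrays without indometacin held a narrow range of 2.82 to 3.99 with a median of 3.49, and 5 INDOM arrays (49, 50, 52, 53 and 54) exceeded all of them. It was the 1 gene of 14557 (0.00687%) with 5 or more INDOM arrays above all 48, a count that nothing is read from because the gene was chosen by these values. INDOM LPS array 51, which was high in S100a8, was inside the range in Alox15.

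Pf4 (transcript cluster 17693479) and Cd36 (transcript cluster 17781011) were set apart by smaller steps. Pf4 was 5.15, 5.06 and 4.25 on the INDOM LPS arrays 49, 50 and 51 and 4.26, 4.75, 3.01, 4.11 and 4.62 on the INDOM NaCl arrays 52 to 56, with 4 of these 8 (49, 50, 53 and 56) above the range of 2.84 to 4.62 without indometacin. Array 56 and the highest array without indometacin (SC560 NaCl array 36) both round to 4.62. Cd36 was 3.88, 4.14 and 3.20 on the INDOM LPS arrays and 3.23, 3.84, 3.06, 2.57 and 3.31 on the INDOM NaCl arrays. Only arrays 49, 50 and 53 exceeded the highest of the 48 other arrays, at 3.79, and INDOM NaCl array 55 was below their median of 3.06.

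Hba-a1 (transcript cluster 17655129) was 8.34, 9.24 and 7.33 on the INDOM LPS arrays 49, 50 and 51, and 8.21, 8.95, 7.44, 6.17 and 5.35 on the INDOM NaCl arrays 52 to 56. Without indometacin it ran from 4.40 to 8.29 with a median of 5.91. Its upper end was set by VG LPS array 46 at 8.29, and the next highest was SC560 NaCl array 38 at 7.21. Arrays 49, 50 and 53 were above all 48, arrays 51, 52 and 54 above all but array 46, and arrays 55 and 56 in the middle of the range or below it. The share of all 14557 genes that lay above every array without indometacin was 4.29% on array 49, 3.85% on array 50, 1.39% on array 51, 5.01% on array 52, 2.73% on array 53, 4.61% on array 54, 1.2% on array 55 and 2.02% on array 56.

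**Figure D1:**
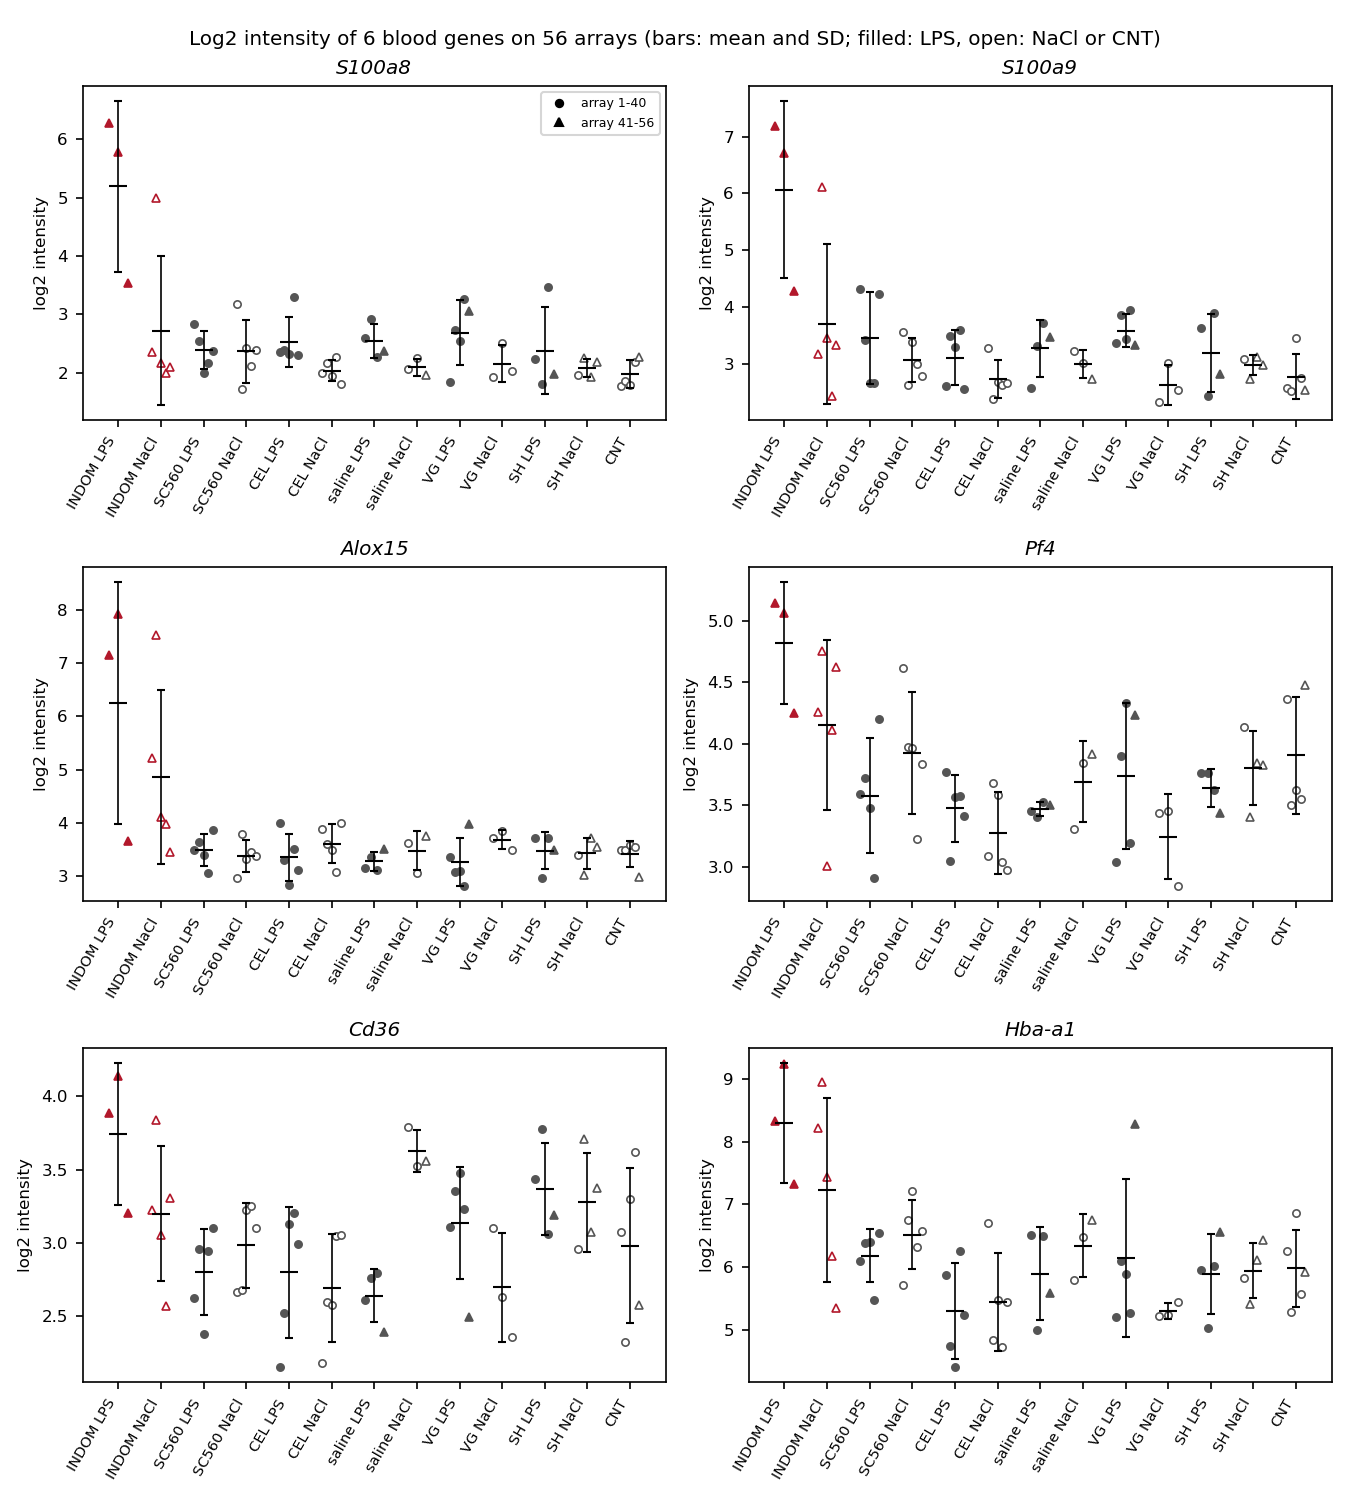
Log2 intensity (y axis) of each of the 6 genes (panels) on every array by group (x axis), INDOM in red. Filled points are LPS arrays and open points NaCl or CNT arrays, circles are arrays 1 to 40 and triangles arrays 41 to 56, and bars give the group mean and SD. INDOM LPS arrays 49 and 50 and INDOM NaCl array 53 lie above every array without indometacin in all 6 panels.

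The order of the group means placed INDOM LPS first for all 6 genes and INDOM NaCl second for all but Cd36, where it was the fifth. S100a8 averaged 5.19 ± 1.46 in INDOM LPS (SD, n = 3), 2.72 ± 1.28 in INDOM NaCl (n = 5) and 1.97 ± 0.24 in CNT (n = 5), the lowest group. S100a9 averaged 6.06 ± 1.56 in INDOM LPS, 3.70 ± 1.41 in INDOM NaCl and 2.63 ± 0.36 in VG NaCl (n = 3), the lowest group. Of the 12 steps between neighbours in that order, 1 exceeded the larger of the neighbours' SDs for S100a8 and 1 for S100a9, in both genes the step between INDOM LPS and INDOM NaCl. For Alox15, Pf4, Cd36 and Hba-a1, 0 of 12 steps did. The SDs of the INDOM groups were wide, with 2.27 and 1.62 for Alox15 in INDOM LPS and INDOM NaCl against 0.18 to 0.45 in the other groups.

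Set against the other 5 pretreatments with the injection as a term (51 arrays), INDOM was higher in all 6 genes. The log2 difference was 1.41 for S100a8 (SE 0.28), 1.58 for S100a9 (SE 0.29), 1.97 for Alox15 (SE 0.30), 0.82 for Pf4 (SE 0.17), 0.41 for Cd36 (SE 0.16) and 1.74 for Hba-a1 (SE 0.32). These correspond to 2.67-fold for S100a8, 2.98-fold for S100a9 and 3.34-fold for Hba-a1. The SEs rest on 1 spread shared by all pretreatments. As the INDOM SDs of S100a8, S100a9 and Alox15 were wider than in the other groups, their SEs are too small for the INDOM rats. Across the whole array the same fit called 25 of 36685 transcript clusters (0.0681%) with limma at an adjusted p under 0.05, 11 of them higher in INDOM and 14 lower, and the median difference of all 14557 genes was -0.01. Since the 6 genes were chosen by this contrast, their own tests are not given. The number of calls was 7 without INDOM LPS array 49, 10 without INDOM LPS array 50 and 88 without VG LPS array 46.

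INDOM was also set against each of the other pretreatments, the 2 selective cyclooxygenase inhibitors among them. S100a8 was higher in INDOM by 1.36 against SC560, 1.45 against CEL, 1.43 against saline, 1.33 against VG and 1.51 against SH. Alox15 was higher by 1.96, 1.91, 2.03, 1.98 and 1.94 against the same 5 pretreatments. Hba-a1 ran from 1.30 against SC560 to 2.28 against CEL, and Cd36 from 0.08 against SH to 0.66 against CEL. SC560 and CEL arrays all belong to the other array set, so those differences carry the set as well.

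Inside arrays 41 to 56, where INDOM was compared with the 7 saline, VG and SH arrays of the same set, the differences of the calprotectin genes were as large. They were 1.48 for S100a8 (SE 0.51), 1.63 for S100a9 (SE 0.54), 1.85 for Alox15 (SE 0.62), 0.68 for Pf4 (SE 0.25), 0.29 for Cd36 (SE 0.25) and 1.23 for Hba-a1 (SE 0.51). This fit called 0 of 36685 transcript clusters (0.0%) with limma, with 1593 at an unadjusted p under 0.05 and 0 calls by the analysis of variance without moderation. With the array set as a term over the 51 arrays the differences were 1.38, 1.60, 1.74, 0.70, 0.52 and 1.06 in the same order of genes. Without arrays 49, 50 and 53, left out after their values were seen, the difference fell to 0.23 for S100a8 (SE 0.20), 0.37 for S100a9 (SE 0.22), 0.60 for Alox15 (SE 0.18), 0.46 for Pf4 (SE 0.20), 0.05 for Cd36 (SE 0.18) and 0.99 for Hba-a1 (SE 0.36). Most of the mean difference of S100a8, S100a9, Alox15 and Cd36 thus came with 3 rats of 8, and less of that of Pf4 and Hba-a1.

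**Figure D2:**
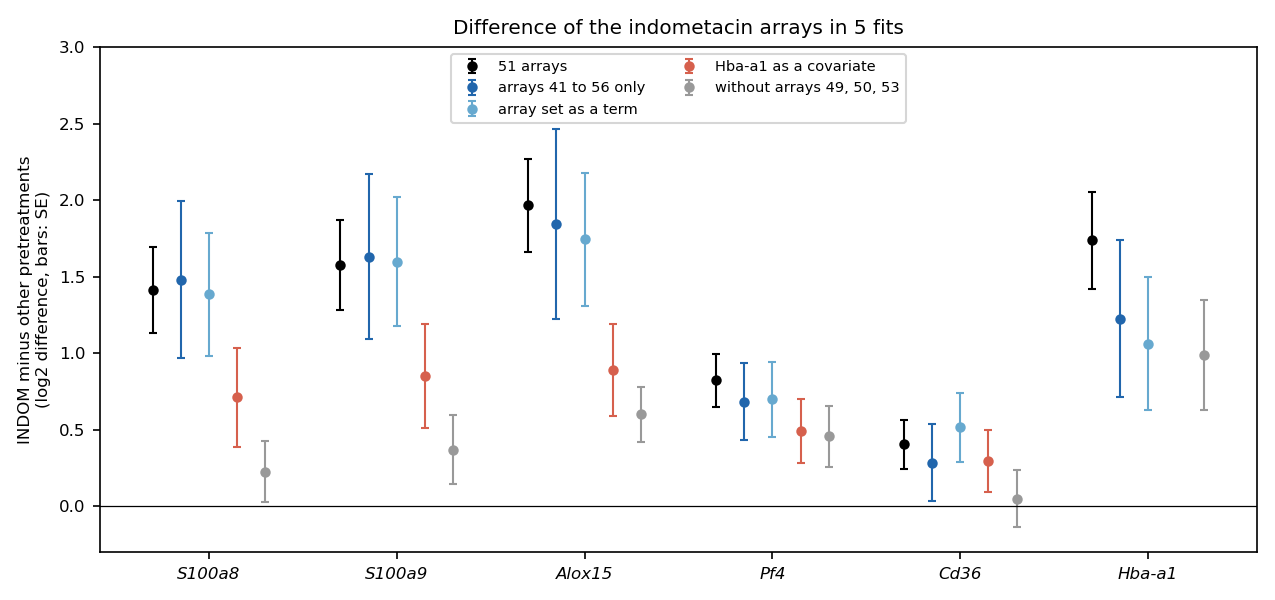
Difference of the INDOM arrays from the other pretreatments (y axis, log2, bars are the SE) for each of the 6 genes (x axis) in 5 fits, told apart by colour. The difference of S100a8 was 1.41 over 51 arrays, 1.48 inside arrays 41 to 56, 1.38 with the array set as a term, 0.71 with Hba-a1 as a covariate and 0.23 without arrays 49, 50 and 53.

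Hba-a1 served as the sign of blood in the tissue piece. With its log2 level as a covariate over the 51 arrays, the INDOM difference was 0.71 for S100a8 (SE 0.32), 0.85 for S100a9 (SE 0.34), 0.89 for Alox15 (SE 0.30), 0.49 for Pf4 (SE 0.21) and 0.30 for Cd36 (SE 0.20). The difference was smaller than without the covariate in all 5 genes. Since Hba-a1 was itself among the genes chosen, the covariate is not independent of the choice.

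Arrays 46 and 52 had Hba-a1 close to that of array 49 with far lower calprotectin. INDOM NaCl array 52 had 8.21 for Hba-a1, close to INDOM LPS array 49 at 8.34, but 2.36 for S100a8 and 3.17 for S100a9, against 6.27 and 7.19 on array 49. Its Alox15 level was 5.21. VG LPS array 46 had 8.29 for Hba-a1 with 3.06 for S100a8, 3.33 for S100a9 and 3.99 for Alox15, and 4 of the other 47 arrays without indometacin were above it in S100a8 and 16 in S100a9. Array 46 is not a like tissue piece, with medians of 3.20 over choroid plexus markers and -1.94 over hypothalamic neuron markers. Its median over monocyte markers was 1.11, against at most 0.30 on the other 55 arrays. Arrays 52 and 49 also differ in injection. INDOM LPS array 51 lay the other way, with 7.33 for Hba-a1 below arrays 46 and 52 and 3.53 for S100a8 above them.

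On the INDOM arrays Alox15 had a higher correlation with Hba-a1 than the calprotectin genes had, among arrays that share 1 normalization and gene pairs that share the dissection of a tissue piece. All these genes were chosen by their levels on these 8 arrays, which pool LPS and NaCl rats. A correlation there follows in part from the choice and is a description only. Pearson's r with Hba-a1 over the 8 INDOM arrays was 0.87 for Alox15 (Spearman's rho 0.98), 0.75 for S100a8 (rho 0.83), 0.75 for S100a9 (rho 0.71), 0.73 for Cd36 (rho 0.71) and 0.34 for Pf4 (rho 0.62). Over the 48 arrays without indometacin r was 0.38 for Alox15, 0.08 for S100a8, 0.21 for S100a9, 0.00 for Cd36 and 0.43 for Pf4. In the 16 arrays of the second set, which hold the INDOM arrays, r was 0.76 for S100a8, 0.74 for S100a9 and 0.84 for Alox15. In arrays 1 to 40 it was 0.01 for S100a8, 0.27 for S100a9 and 0.26 for Alox15, so Alox15 and S100a9 were alike there. Without the 2 INDOM arrays farthest from the median of Hba-a1, r over the remaining INDOM arrays was 0.95 for Alox15, 0.89 for Cd36, 0.74 for Pf4, 0.69 for S100a9 and 0.68 for S100a8.

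**Figure D3:**
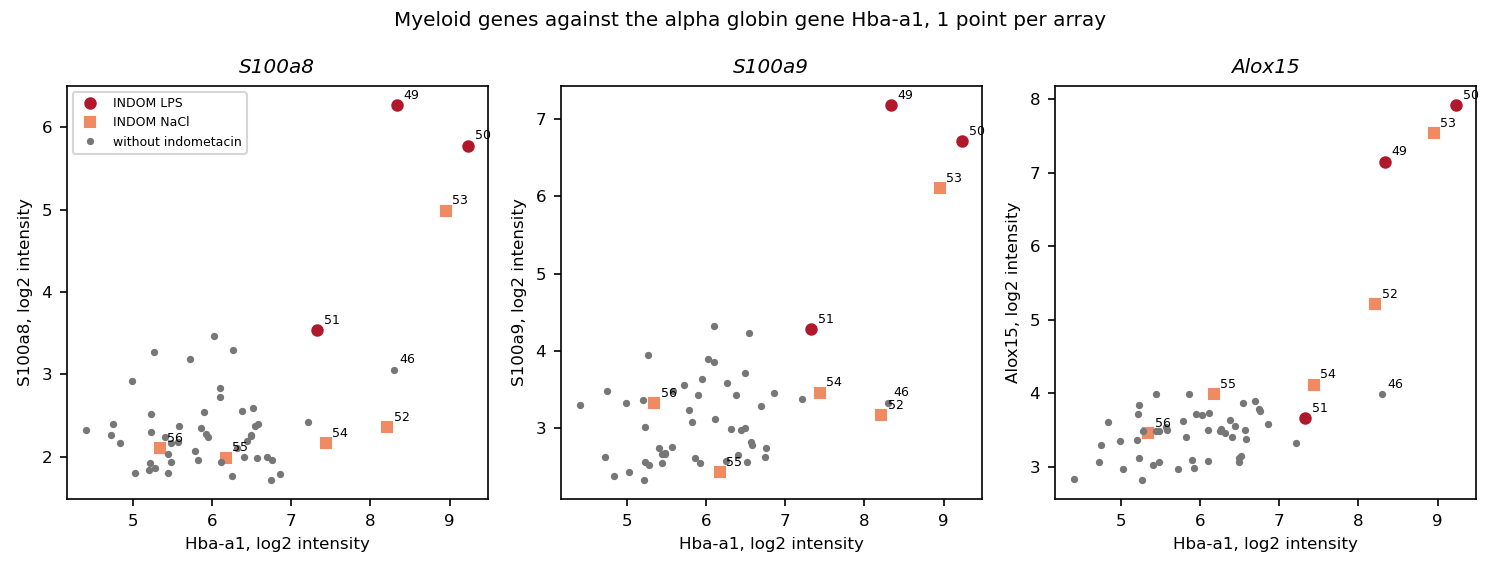
Log2 intensity of S100a8, S100a9 and Alox15 (y axes, 1 panel each) against log2 intensity of Hba-a1 (x axis), 1 point per array, with the INDOM arrays 49 to 56 and VG LPS array 46 labelled by number. Arrays 49, 50 and 53 are high on both axes, whereas arrays 46 and 52 have Hba-a1 at 8.29 and 8.21 with S100a8 at 3.06 and 2.36. Array 46 stood apart from the other arrays in its choroid plexus and hypothalamic neuron markers.

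Other red cell genes were high on the same arrays and on array 52. Ahsp, which encodes the chaperone of free alpha globin, was 3.64, 4.39 and 2.12 on INDOM LPS arrays 49, 50 and 51 and 3.43, 4.07, 2.09, 2.09 and 2.02 on INDOM NaCl arrays 52 to 56, against 1.76 to 2.96 without indometacin. Slc4a1, the anion exchanger of the red cell membrane, was 5.06, 5.33 and 3.59 on the INDOM LPS arrays and 4.83, 4.75, 3.44, 3.16 and 3.37 on the INDOM NaCl arrays, against 3.01 to 4.09. Arrays 49, 50, 52 and 53 thus exceeded all 48 other arrays in both genes. Of 14 red cell genes measured, 4, 5, 5 and 5 lay above all 48 on these 4 arrays, 2 on array 54 and 0 on arrays 51, 55 and 56. Of all genes, 4.29%, 3.85%, 5.01% and 2.73% did so on arrays 49, 50, 52 and 53, and 4.61% on array 54. The median deviation over the 14 genes was 0.39 on array 49 and 0.41 on array 53, above the highest value of 0.19 without indometacin, but 0.04 on array 50 and 0.06 on array 52, inside that range. In the comparison of INDOM with the other 5 pretreatments 1 of the 14, Hba-a3 (another alpha globin), passed limma's test, with a log2 difference of 0.99 (SE 0.20, adjusted p = 0.0266), where 0.0681% of all transcript clusters were called. Inside arrays 41 to 56, 0 of the 14 passed, and Hba-a3 differed by 0.90 (SE 0.37, adjusted p = 1.00). The list had 12 of 14 genes above 0 and a median of 0.25, against 46.3% of all genes above 0. Hba-a3 was among the 5 genes most like Hba-a1, so its call is not independent of the arrays by which the 6 genes were chosen.

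The defining genes of neutrophils mostly lay inside the range of the other arrays. Of 15 neutrophil genes measured, 0 lay above all 48 other arrays on arrays 49, 50, 52, 54, 55 and 56, 1 on array 51 (Ltf) and 2 on array 53 (Padi4 and Hp). Of all genes, 1.39% lay above all 48 on array 51 and 2.73% on array 53. In limma's test of INDOM against the other 5 pretreatments 0 of 15 passed (12 above 0, median 0.11). Cxcr2 (a chemokine receptor of neutrophils), Csf3r (the receptor of G-CSF), Camp and Mmp8 (granule proteins) lay inside the range of the 48 other arrays on all 8 INDOM arrays. The summed neutrophil level, as the median deviation over the list, ran from -0.10 to 0.16 on the INDOM LPS arrays and from -0.05 to 0.21 on the INDOM NaCl arrays, against -0.37 to 0.21 without indometacin. Lcn2, a granule protein that many cells also make after LPS, was 6.04, 6.05 and 6.34 on INDOM LPS arrays 49, 50 and 51 and 6.26 on INDOM NaCl array 53, against 3.38 to 4.29 on the other 4 INDOM NaCl arrays. The dim levels of most neutrophil genes limit this reading, since Cxcr2 had a median percentile of 16.11 and Fpr1 of 14.89, and no detection calls were used here.

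Platelet and monocyte genes were mostly inside the range of the other arrays. Of all genes, between 1.2% (array 55) and 5.01% (array 52) lay above all 48 on an INDOM array. Counts of 1 or 2 genes below are therefore not read as a result about a list. Of 9 platelet genes 1 lay above all 48 on array 49, 1 on array 52 and 2 on array 54, and the median deviation over the list was 0.60 on array 49, above the highest value of 0.44 without indometacin. Of 13 monocyte genes Clec4a1 lay above all 48 on arrays 50, 53 and 55, Cd14 and F10 on array 51 and Mefv on array 54. Ccr2, the chemokine receptor of classical monocytes, lay inside the range on all 8 INDOM arrays but was dim, at a median percentile of 8.86. In the test of INDOM against the other 5 pretreatments 0 of 9 platelet genes and 0 of 13 monocyte genes passed (medians 0.15 and 0.12). Of 11 endothelial genes 3 lay above all 48 on array 49 (Cldn5, Slc2a1 and Mfsd2a, a tight junction protein and transporters of the blood-brain barrier), 2 on array 50 (Cldn5 and Slc2a1), 1 on array 51 (Flt1), 1 on array 53 (Slc2a1) and 0 on the other 4. The median deviation over the endothelial list ran from 0.01 to 0.41 on the INDOM LPS arrays and from -0.13 to 0.20 on the INDOM NaCl arrays, against -0.54 to 0.48 without indometacin, and 0 of 11 passed the test. The part of these cell types in the levels of Pf4 and Cd36 was not tested.

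The complement genes of microglia were high on arrays 49, 50 and 53. C1qc, a subunit of the C1q complex that microglia make in brain, was 6.78, 6.81 and 5.90 on INDOM LPS arrays 49, 50 and 51 and 5.39, 6.56, 5.00, 5.36 and 5.39 on INDOM NaCl arrays 52 to 56, against 4.42 to 5.83 without indometacin. C1qa, C1qb and C1qc each exceeded all 48 other arrays on arrays 49, 50 and 53, where 4.29%, 3.85% and 2.73% of all genes did. Of 13 microglia genes, C1qa (0.55, SE 0.11, adjusted p = 0.0266) and C1qc (0.70, SE 0.14, adjusted p = 0.0286) passed limma's test of INDOM against the other 5 pretreatments, and 0 of 13 passed it inside arrays 41 to 56, where C1qc differed by 0.67 (SE 0.24) and C1qa by 0.32 (SE 0.19). The median over the 13 genes was 0.07 in the first comparison and -0.06 in the second. C1qc was among the 5 genes most like S100a8 and S100a9, and C1qa among those most like Pf4. Their calls are thus not independent of the arrays by which the 6 genes were chosen.

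**Figure D4:**
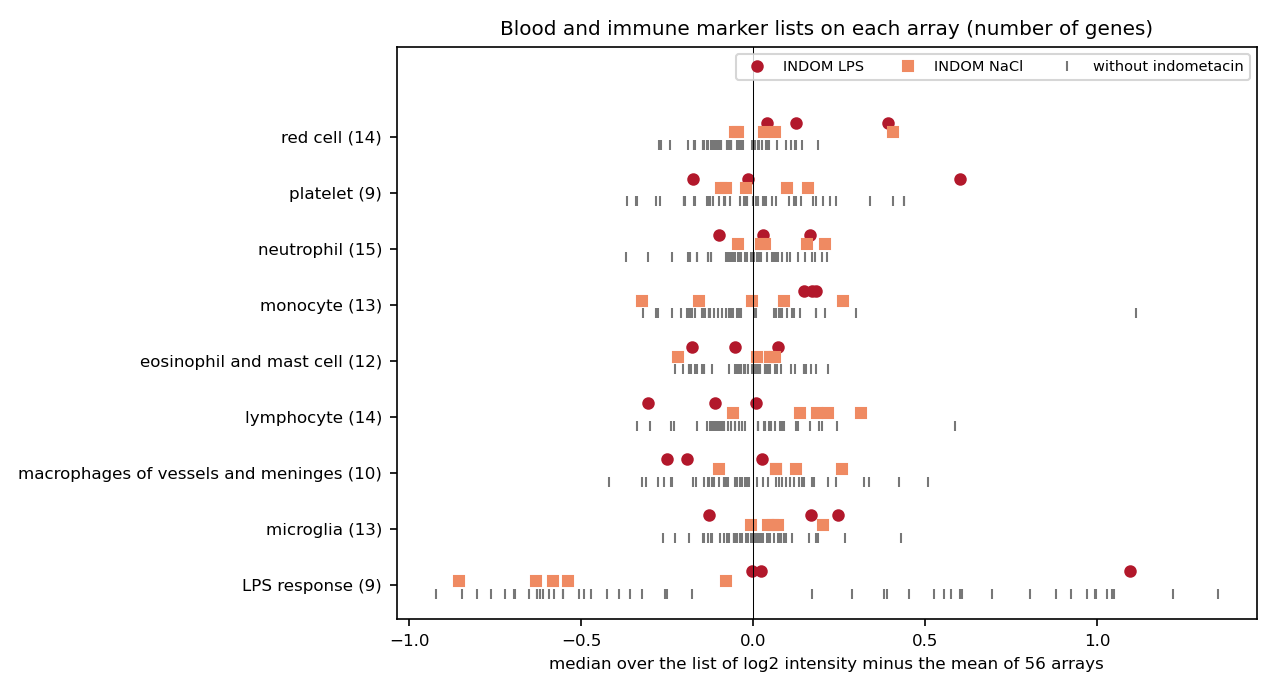
Median log2 deviation from the mean of 56 arrays (x axis) over each of 9 gene lists (rows, with the number of genes measured), 1 mark per array. Dark circles are INDOM LPS arrays, squares INDOM NaCl arrays and grey ticks arrays without indometacin. Red cell genes reach 0.39 and 0.41 on arrays 49 and 53 and 0.04 and 0.06 on arrays 50 and 52, against at most 0.19 without indometacin, whereas all INDOM arrays lie inside the range of the others in the neutrophil list.

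Relatives and pathway partners of the 6 genes gave few or no calls in the comparison of INDOM with the other 5 pretreatments. Of the other S100 genes 0 of 12 passed (6 above 0, median -0.01). Of the lipoxygenases and leukotriene enzymes 0 of 12 passed, with 11 above 0 and a median of 0.20, and the list stood at 0.37 on array 49 against at most 0.23 without indometacin. The receptors and signalling genes of calprotectin (0 of 8, median 0.05), the cyclooxygenase pathway (0 of 10, median -0.13), the genes of fatty acid uptake and use that work with Cd36 (0 of 10, median 0.04) and the chemokine and adhesion genes for myeloid cells (0 of 11, median -0.16) had none either.

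Within the indometacin rats, the levels after LPS were set beside those after NaCl as a description. LPS minus NaCl was 2.47 for S100a8 (SE 0.44), 2.36 for S100a9 (SE 0.49), 1.38 for Alox15 (SE 0.54), 0.67 for Pf4 (SE 0.31), 0.54 for Cd36 (SE 0.27) and 1.08 for Hba-a1 (SE 0.58). These SEs rest on 1 spread shared by all 13 groups. For S100a8 the SD was 1.46 in INDOM LPS and 1.28 in INDOM NaCl, against 0.63 pooled over the groups. For S100a9 it was 1.56 and 1.41, against 0.70 pooled. For Alox15 it was 2.27 and 1.62, against 0.76 pooled, and for Hba-a1 0.95 and 1.47, against 0.82 pooled. The SEs of these genes are therefore too small for the INDOM rats. INDOM LPS and INDOM NaCl overlapped in all 6 genes, because INDOM NaCl array 53 was above INDOM LPS array 51. The LPS response itself was uneven in these rats. Cxcl10 was 4.26, 3.10 and 8.75 on INDOM LPS arrays 49, 50 and 51, so the 2 arrays highest in S100a8 lay in the NaCl range or below it and array 51 in the LPS range. In Nfkbia, however, arrays 49, 50 and 51 (7.15, 6.93 and 7.75) all lay in the LPS range of 6.92 to 8.32, as did their Lcn2 levels in that of 4.48 to 6.94. Ptgs2 was in its LPS range on arrays 49 (5.52) and 51 (5.86) and just below it on array 50 (5.21). On INDOM NaCl array 53 Cxcl10 was 4.59, in the NaCl range, whereas Nfkbia at 7.22 and Ptgs2 at 5.95 lay in the LPS ranges. Over the LPS response list the median deviation was 0.02, 0.00 and 1.10 on the INDOM LPS arrays, and -0.86, -0.08, -0.58, -0.54 and -0.63 on the INDOM NaCl arrays.

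LPS without indometacin was tested on 43 arrays (23 LPS and 20 NaCl) of the other 5 pretreatments, a contrast in which no INDOM array takes part. S100a8 ran from 1.80 to 3.46 with a median of 2.37 after LPS, and from 1.71 to 3.18 with a median of 2.09 after NaCl. S100a9 ran from 2.43 to 4.32 with a median of 3.42 after LPS, and from 2.32 to 3.56 with a median of 2.87 after NaCl. The ranges overlapped widely in both genes. The log2 difference was 0.34 for S100a8 (SE 0.12, limma's adjusted p = 0.624, unadjusted 0.0084) and 0.44 for S100a9 (SE 0.14, adjusted p = 0.393, unadjusted 0.0035). It was -0.13 for Alox15, -0.08 for Cd36, -0.04 for Hba-a1 and -0.01 for Pf4, each with an adjusted p of 1.00. Thus 0 of the 6 genes passed, in a comparison that called 125 of 36685 transcript clusters (0.341%), 111 higher and 14 lower. Without the 5 arrays whose level of Cxcl10, though not always of Nfkbia and Ptgs2, went against their label, left out after the values were seen, the difference was 0.41 for S100a8 and 0.52 for S100a9.

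The genes that rose after LPS on these 43 arrays included acute response genes and the chemokine and adhesion genes through which myeloid cells enter tissue. Of 9 LPS response genes 6 rose and 0 fell, among them Cxcl10 by 3.31 (adjusted p = 6.66e-06), Zfp36 by 1.54 (adjusted p = 6.66e-06) and Nfkbia by 1.37 (adjusted p = 6.66e-06). Of 11 chemokine and adhesion genes for myeloid cells 6 rose, among them Ccl2, which attracts monocytes, by 1.87 (adjusted p = 0.00707), Cxcl1, which attracts neutrophils, by 1.36 (adjusted p = 0.000439) and Selp, the P-selectin of platelets and endothelium, by 1.28 (adjusted p = 0.00265). Of 11 endothelial genes 3 fell, namely Cldn5 by 1.05, Abcb1a by 0.52 and Tek by 0.50. Among the 15 neutrophil genes 1 rose (Lcn2, by 1.30), and the median over that list was 0.04. Of the red cell (14), monocyte (13), S100 (12) and lipoxygenase (12) genes 0 passed. In the cyclooxygenase pathway Ptgs2, which encodes COX-2, rose by 1.23 (adjusted p = 5.24e-07) as 1 of 10, and of the fatty acid genes Pdk4 rose by 1.09 as 1 of 10. Against these, 44.1% of all genes lay above 0 and their median was -0.01.

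The effect of LPS was also fitted within each pretreatment, with all injection labels kept. Cxcl10 went against the label on SH LPS array 6, VG LPS arrays 11 and 12, CEL LPS array 21 and SC560 NaCl array 36, which limits these fits. These fits called 0 transcript clusters (0.0%) within SC560, CEL, saline, VG and SH, where 1475, 2228, 1609, 2752 and 1252 had an unadjusted p under 0.05 in limma and the analysis of variance without moderation called 0. S100a9 was 3.36, 3.85, 3.43, 3.95 and 3.33 on the 5 VG LPS arrays and 2.32, 3.02 and 2.55 on the 3 VG NaCl arrays. The log2 difference between those groups was 0.95 (SE 0.33, limma's adjusted p = 0.512, unadjusted 0.0067). Cd36 was 2.61, 2.76, 2.80 and 2.39 on the saline LPS arrays and 3.79, 3.53 and 3.56 on the saline NaCl arrays. Its difference was -0.99 (SE 0.27, adjusted p = 0.999, unadjusted 0.00073), the smallest unadjusted p of the 6 genes in these fits, and it did not pass.

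**Figure D5:**
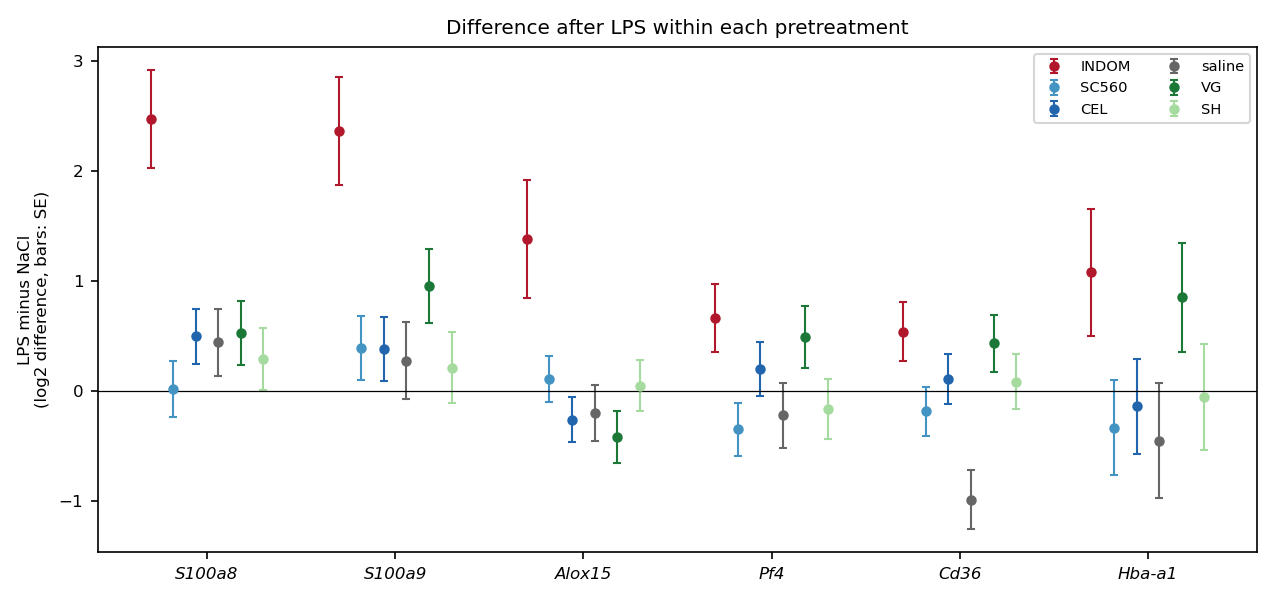
LPS minus NaCl (y axis, log2, bars are the SE) within each of 6 pretreatments, for each of the 6 genes. The INDOM differences of S100a8 and S100a9 are 2.47 and 2.36, and the Cd36 difference within saline is -0.99.

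Whether the LPS effect differed between pretreatments was tested without indometacin, again with the arrays whose Cxcl10 went against their label kept. Set against SH, VG had an LPS effect that differed in 1 of 36685 transcript clusters (0.00273%), which was none of the 6 genes, and S100a9 differed by 0.74 (SE 0.47, adjusted p = 0.921). Between CEL and saline and between SC560 and saline limma called 0 (0.0%), with 1741 and 1456 at an unadjusted p under 0.05 and 0 by the analysis of variance. The LPS effect on Cd36 was higher by 1.10 in CEL than in saline (SE 0.35, adjusted p = 0.999, unadjusted 0.0032) and by 0.80 in SC560 than in saline (SE 0.35, adjusted p = 1.00, unadjusted 0.027), and both comparisons share the saline arrays.

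The pretreatments other than indometacin and the handling controls gave no call among the 6 genes. VG against SH, CEL against saline, SC560 against saline, SH NaCl against CNT and saline NaCl against CNT each called 0 transcript clusters (0.0%) with limma, with 2629, 1866, 1821, 1946 and 1216 at an unadjusted p under 0.05. The analysis of variance without moderation called 1 in each of VG against SH and CEL against saline and 0 in the others. The highest CNT array stood at 1.00 over the LPS response genes, which limits both comparisons with CNT. The lowest unadjusted p of a member were those of Cd36 in saline NaCl against CNT (log2 difference 0.65, SE 0.26, adjusted p = 1.00, unadjusted 0.016) and of Hba-a1 in CEL against saline (-0.72, SE 0.34, adjusted p = 0.978, unadjusted 0.040). S100a8 differed by 0.22 between VG and SH, by -0.04 between CEL and saline and by 0.05 between SC560 and saline. S100a9 differed by 0.09, -0.20 and 0.14 in the same comparisons.

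Genes whose pattern over the 56 arrays was most like that of each member were listed by Pearson's r, as a description over arrays that share the normalization and the 8 INDOM arrays. S100a8 was most like S100a9 (r = 0.90), then Sult1a1 (0.82), Pnpla2 (0.80), C1qc (0.79) and Alox15 (0.76). Over the 48 arrays without indometacin r of S100a8 was 0.60 with S100a9, 0.57 with Sult1a1, 0.63 with Pnpla2, 0.38 with C1qc and -0.19 with Alox15. S100a9 had the same 5 partners, counting S100a8 in place of itself. Alox15 was most like Ahsp (0.78), S100a9 (0.77), S100a8 (0.76), Acer2 (0.75) and Hba-a1 (0.74), and over the 48 arrays r was -0.05 with Ahsp and 0.43 with Acer2. Hba-a1 was most like Hbb-b1 (0.78), Alox15 (0.74), Hba-a3 (0.71), S100a9 (0.63) and Mdk (0.59). Without indometacin its r was 0.57 with Hbb-b1, 0.53 with Hba-a3 and 0.58 with Mdk. Pf4 was most like Sult1a1 (0.66), C1qa (0.65), Msi2 (0.61), Gmfg (0.59) and Fkbp14 (0.59), and Cd36 like Heph (0.60), Cbs (0.54), Syf2 (0.53), Spin2a (0.52) and Sar1b (0.52).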

How the data were processed

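Medial hypothalamus RNA of 56 rats was hybridised to Affymetrix Rat Gene 2.1 ST arrays. The authors deposited 1 table of linear intensity values for 36685 transcript clusters, made with RMA in Affymetrix Expression Console per the labels (version not stated). In the methods of the study, RMA, quantile normalization and median polish were run in Partek Genomics Suite. Here log2 was taken with no further normalization, filter or pseudocount. Intensities ran from 1.75 to 7819.8, the array medians from 16.43 to 18.9, and Pearson's r of array pairs from 0.9316 to 0.976. Precision is limited by how many arrays a group has. A platform table paired 14824 clusters with 1 symbol, 829 with several and 21032 with none. A gene was represented by its brightest cluster with 1 symbol.

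Differences were fitted with limma 3.58.1 in R 4.3.3 (lmFit, eBayes) on all clusters, with Benjamini-Hochberg adjustment and a threshold of 0.05, the analysis of variance of the methods being an alternative. LPS was fitted on 43 arrays with pretreatment as a term, single groups on 48 arrays without indometacin, and indometacin on 51 arrays and on 15 arrays of the second set. Array set, second quantile normalization, dim clusters, variance model, second-run arrays, Hba-a1 and single arrays were varied. The fits were tested on simulated data. Each array is 1 rat, and p-values and SEs measure the spread between rats, pooled over the groups of a fit. The 6 genes and 19 lists were chosen with earlier results of these data known. The 6 genes were named throughout, of each list with calls up to 3 genes past the threshold with the largest difference, and for each gene the 5 most alike. In lists without a call the 2 genes with the smallest p were planned to be named, which was not carried out in full. Genes named outside these rules (Ahsp, Slc4a1, Lcn2, the C1q genes, Cldn5, Slc2a1, Mfsd2a, Flt1, Cxcr2, Csf3r, Camp, Mmp8, Fpr1, Ltf, Padi4, Hp, Ccr2, Clec4a1, Cd14, F10, Mefv) were chosen after their values were seen. Python 3.11.15 made summaries and figures.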

Additional observations from a re-analysis of the deposited data

Results flagged for a closer look

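Of 60 groups of 4 to 10 arrays looked at over the 6 genes, 5 held an array far from the others of its group, by the gap of the extreme array relative to the range of the group. Chance alone gives such an array in about 1 in 20 groups, and the groups of 3 arrays (INDOM LPS, saline NaCl and VG NaCl) could not be looked at. INDOM NaCl array 53 stood out in both calprotectin genes, with 4.99 for S100a8 where the other 4 arrays ran from 1.99 to 2.36, and with 6.11 for S100a9 where they ran from 2.43 to 3.46. As S100a8 and S100a9 were chosen by their levels on the INDOM arrays, these 2 are a description and no test. CEL LPS array 24 had 3.29 for S100a8, against 2.30 to 2.39 on the other 4. CNT array 3 had 3.46 for S100a9, against 2.52 to 2.75. CNT array 41, the 1 CNT array of the second array set, had 2.98 for Alox15, against 3.48 to 3.58 on the others.

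Among 24 differences of the LPS effect between pretreatments, 2 had every LPS array of INDOM above the mean of the INDOM NaCl arrays and every LPS array of saline below the mean of the saline NaCl arrays. Alox15 and Hba-a1 also had mean LPS effects of opposite sign in INDOM (1.38 and 1.08) and in saline (-0.20 and -0.45), but not on every array. The LPS effect on Cd36 was higher by 1.53 in INDOM than in saline (0.54 in INDOM and -0.99 in saline), and that on Pf4 by 0.89 (0.67 in INDOM and -0.22 in saline). Neither difference was tested, because the genes were chosen by the INDOM arrays.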

How the results depend on the processing

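Among the 6 genes, 0 were called in every tested comparison under every alternative run. Where an array was left out in turn, the log2 LPS difference without indometacin ran from 0.28 to 0.40 for S100a8, 0.39 to 0.49 for S100a9, -0.16 to -0.10 for Alox15, -0.063 to 0.034 for Pf4, -0.13 to -0.04 for Cd36 and -0.14 to 0.029 for Hba-a1. Its sign turned with the INDOM arrays included (Alox15 0.10, Pf4 0.090, Cd36 0.011, Hba-a1 0.13), for Cd36 on arrays 1 to 40 alone (0.0082) and for Hba-a1 with the array set as a term (0.017). Within saline Cd36 ran from -1.04 to -0.90, and within VG S100a9 from 0.80 to 1.15. The INDOM difference ran from 1.07 to 1.61 for S100a8, 1.24 to 1.84 for S100a9, 1.57 to 2.25 for Alox15, 0.71 to 1.01 for Pf4, 0.29 to 0.52 for Cd36 and 1.50 to 2.05 for Hba-a1, and inside arrays 41 to 56 from 1.18 to 1.66, 1.33 to 1.87, 1.49 to 2.23, 0.59 to 0.86, 0.15 to 0.41 and 0.99 to 1.51 in the same order. Hba-a1 as a covariate gave 0.71 for S100a8, 0.85 for S100a9 and 0.89 for Alox15 (inside arrays 41 to 56 0.74, 0.93 and 0.72). Without INDOM arrays 49, 50 and 53, an alternative added after the data were seen, S100a8 was 0.23, S100a9 0.37, Alox15 0.60, Pf4 0.46, Cd36 0.05 and Hba-a1 0.99 (inside arrays 41 to 56 S100a8 0.34, S100a9 0.44, Alox15 0.49 and Cd36 -0.14).

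The 125 transcript clusters called for LPS were 56 on arrays 1 to 40 alone and 94 to 177 with an array left out. The 25 called for INDOM were 38 by analysis of variance, 61 among clusters above the median intensity, 1 with the array set as a term, 15 without the arrays of a second run number, 2 with Hba-a1 as a covariate and 58 without arrays 49, 50 and 53. With an array left out they ran from 7 (without 49) to 88 (without 46), with 10 without 50, 39 without 51 and 47 without 55. Counts of 0 became 1 for VG against SH (analysis of variance, variance trend, clusters above the median, second quantile normalization), for CEL against saline (analysis of variance, variance trend, all 56 arrays, clusters above the median, arrays 1 to 40) and for SC560 against saline (arrays 1 to 40). LPS within VG called 1 after a second quantile normalization, 3 on arrays 1 to 40 and 4 with Hba-a1 as a covariate. LPS within saline called 1 on arrays 1 to 40 and 1 without second-run arrays, and within CEL 1 above the median, 1 after a second quantile normalization, 2 with the array set as a term and 1 on arrays 1 to 40. Saline NaCl against CNT called 2 without second-run arrays, and the 1 call of the LPS effect of VG minus SH was 0 above the median, with the array set as a term and on arrays 1 to 40. With an array left out these counts ran from 0 to 1 for VG against SH, CEL against saline, LPS within VG, saline NaCl against CNT and the LPS effects of VG minus SH and of CEL minus saline, and from 0 to 2 for LPS within saline and within CEL. The cause of these moves was not tested. No paired analysis was possible because each array number belongs to 1 rat and the groups share no numbers. Other transcript clusters of the 6 symbols could not be tried, as each has 1, and 5 of the 6 genes lie below the median intensity, where a small change is hard to measure.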
